A study of Saccharomyces cerevisiae with 8 samples.

Results

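The growth score of a yeast mutant compares the abundance of its DNA barcode in a mixed culture after 16 h in plain medium with its abundance at time 0, before any selenomethionine (SeMet) was given. It was described here for all strains of the pool, from the 3 arrays on which the untreated culture was hybridised against the starting culture, out of 8 arrays in the series. Probes that carried the same gene name were averaged on each array, and a strain was kept when it had a value on at least 2 of the 3 arrays. Of 5100 gene names on the array, 4628 were kept, 365 had no growth value and 107 had a value on 1 array only. Of those kept, 4333 had 3 values and 295 had 2.

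The pool held haploid deletion mutants of non-essential genes and DAmP mutants of essential genes, in which the messenger RNA of the targeted gene is destabilised and its product reduced. All strains derive from BY4741, a MATa laboratory strain of Saccharomyces cerevisiae that lacks HIS3, LEU2, MET15 and URA3. The culture grew for 10 generations in synthetic complete medium to which methionine and cysteine had been added, and on the other 5 arrays SeMet-treated cultures (20 uM on 3 arrays, 12 uM on 2) were compared with untreated ones. Time 0 was taken after the thawed pool had already been regrown, so that strains lost during regrowth have no starting level. The array names do not say whether a strain is a deletion or a DAmP allele. On all 3 growth arrays the 16 h culture was labelled with Cy3 and the time 0 culture with Cy5, and a dye effect and growth cannot be told apart. The labels call the 3 arrays biological replicates.

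In a competitive pool every strain grows beside all others in the same flask, and its barcode falls behind when it divides more slowly than the average of the pool or stops dividing. Yeast on glucose obtain most of their energy by fermentation, and growth rate follows the capacity to make ribosomes. Mitochondria are still needed for iron-sulfur clusters, some amino acids and, in respiring cells, ATP. In complete medium the cell can take up amino acids, adenine, uracil and inositol, so that many biosynthetic genes are dispensable.

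A score is a log2 ratio, so that -1 is a 2-fold loss of abundance relative to the pool and 1 a 2-fold gain. Most strains kept pace with the pool. The median of the strain means was 0.08, with an SD of 0.78 over strains, and 3170 strains (68.5%) lay within 0.5 of 0. The lower side reached further than the upper: 426 strains (9.2%) had a mean below -1 and 175 (3.78%) a mean above 1, while 49 were below -3 and 3 were above 3. Of the 426, 425 were below 0 on every array that measured them, and of the 175, 174 were above 0 on every one. Tested against 0 with limma at an adjusted p of 0.05, 1039 strains (22.5%) differed, 584 lower (12.6%) and 455 higher (9.83%). When each array was centred on its median, 942 strains were called, 638 lower and 304 higher, so that the lower share rose from 56.2% to 67.7% of calls. The split turned the other way when all 8 arrays entered the fit, with 591 lower and 668 higher, and at an unadjusted p under 0.05, with 803 lower and 990 higher.

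**Figure D1:**
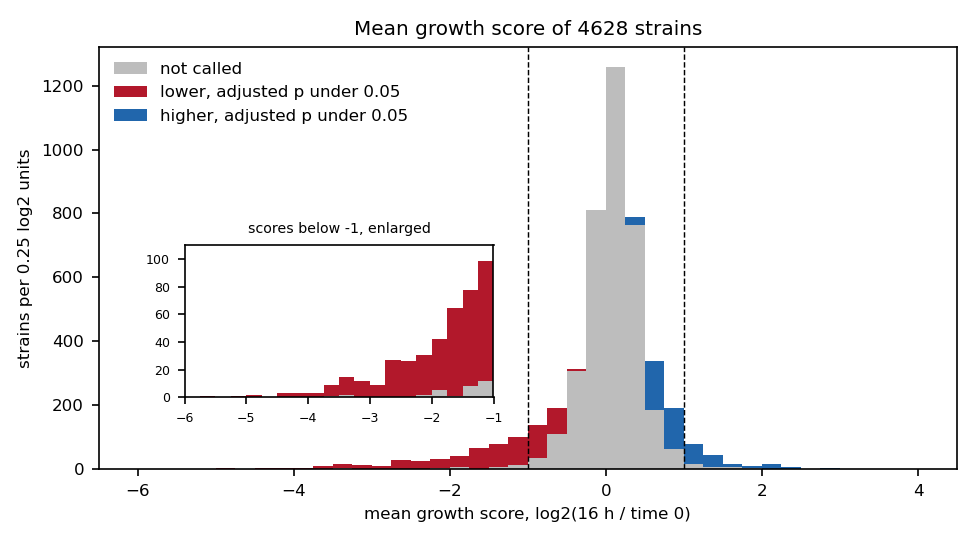
Number of strains (vertical axis) by mean growth score in log2 units (horizontal axis, bins of 0.25), coloured by the limma call, with dashed lines at -1 and 1 and the lower side enlarged in the inset. The distribution peaks just above 0 and its lower side, with 426 strains below -1, is longer than its upper side, with 175 strains above 1.

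Between arrays the scores of a strain had a median SD of 0.23. Over strains the scores correlated with Pearson's r = 0.843 between arrays 1 and 2, 0.751 between 1 and 3 and 0.714 between 2 and 3 (4613, 4344 and 4337 strains). The number of calls rested on which arrays were used. Without replicate 1, 31 strains were called, all lower, without replicate 2, 432 (312 lower, 120 higher), and without replicate 3, 981. In these fits 296 of 4337, 322 of 4344 and 427 of 4613 strains had a mean below -1. The sets of strains differ, so these counts do not show how far the means moved. Array 3 measured the fewest strains, and its gaps fell on the extremes: 280 of the 295 strains with 2 values lacked it, and of the 295, 129 (43.7%) had a mean below -1 and 44 (14.9%) a mean above 1, against 6.85% and 3.02% of the strains with 3 values.

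The strains at the bottom of the list were mutated in genes of lipid, nitrogen and nucleotide control, mitochondrial membranes and ribosomes. INO2 (YDR123C, chromosome IV), which encodes a transcriptional activator of phospholipid synthesis, scored -4.53, -4.44 and -7.87 on the 3 arrays. Its mean of -5.62 ± 1.96 (SD, n = 3; limma adjusted p = 0.0122) was the lowest of all 4628 strains, and all 3 arrays placed it below -4. URE2 (YNL229C, chromosome XIV), which represses genes for the use of poor nitrogen sources, scored -4.28, -3.68 and -7.00. AMD1 (YML035C, chromosome XIII), AMP deaminase of purine interconversion, scored -4.44, -2.61 and -6.08. The means were -4.99 ± 1.77 for URE2 and -4.38 ± 1.74 for AMD1. In all 3 strains array 3 gave the lowest value, and their SDs were the widest of the 15 lowest strains.

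Other strains near the bottom agreed closely between arrays. ERG26 (YGL001C), an essential enzyme of ergosterol synthesis, scored -3.30, -3.80 and -3.79, and CHO2 (YGR157W), which begins the methylation of phosphatidylethanolamine to phosphatidylcholine, -3.13, -3.27 and -3.52. IBA57 (YJR122W), a factor for mitochondrial iron-sulfur proteins, scored -3.25, -3.23 and -3.25. These values were within 0.5 of each other for each gene, and the limma adjusted p of all 3 was 0.00306, the lowest reached by any strain. The remaining strains of the 15 lowest with at least 2 probes were SHE9 at -3.65 and MDM34 at -3.50 (mitochondrial membranes), ISA1 at -3.42 (iron-sulfur proteins), YVH1 at -3.42 (ribosome maturation), AGP2 at -3.35 (a plasma membrane regulator of transport), RSM19 at -3.34 and MRP7 at -3.10 (mitochondrial ribosome), PRP38 at -3.30 (splicing) and RGP1 at -3.25 (Golgi traffic).

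**Figure D2:**
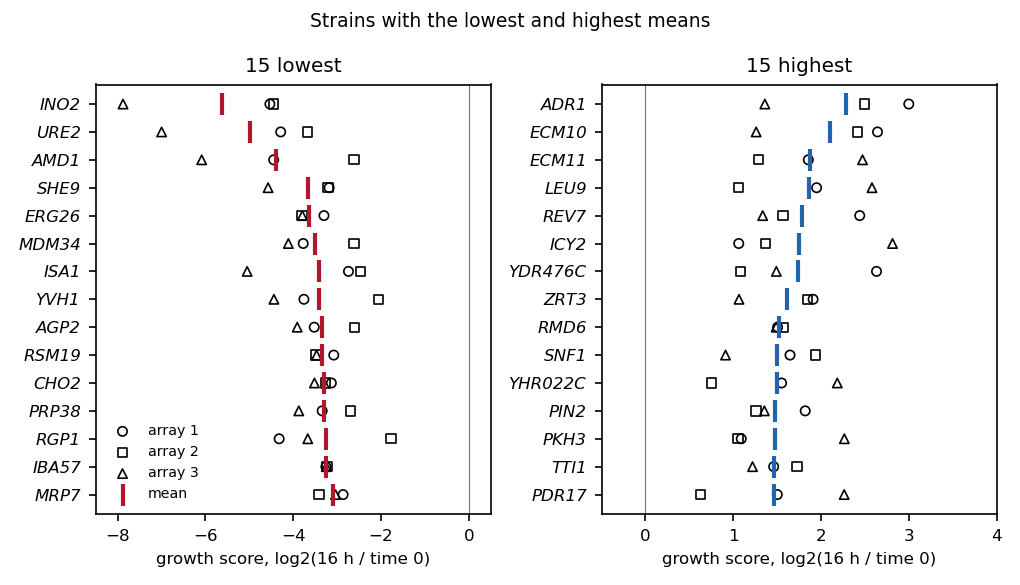
Growth score in log2 units (horizontal axis) on each of the 3 arrays (open symbols) and their mean (coloured bar) for the 15 strains with the lowest and the 15 with the highest means among called strains with 3 values of the same sign and at least 2 probes. Lowest is INO2 at -5.62 and highest ADR1 at 2.28, and the lowest strains lie further from 0 than the highest.

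Strains mutated in a gene for a cytosolic ribosomal protein were among the most affected. Of 108 measured, 55 were lower (50.9%, against 12.6% of all strains) and 4 higher, and their median was -0.94, against 0.08 for all strains. In the small subunit 26 of 44 were lower, with a median of -1.05, and in the large subunit 29 of 64, with a median of -0.74, which was -0.46 when only strains with 3 values were taken. Without replicate 1, 0 and 1 of these calls were made for the small and large subunit, and without replicate 2, 17 and 17. RPS9B, which encodes small-subunit protein S9, scored -3.18, -1.59 and -2.61. RPL35A, of the large subunit, scored -2.87 and -2.89 on the 2 arrays that measured it. Both were below -1.5 on every array, whereas RPL7B, RPL33B, RPS12 and RPS24B were higher, with means of 2.20, 1.13, 0.69 and 0.72.

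Most yeast ribosomal proteins are encoded by a pair of near-identical genes, and both copies were compared where they were measured. This was so for 39 pairs, and the means of the copies differed by a median of 0.85. In 12 pairs both copies were lower, in 18 only 1 copy was, and in 9 neither. The values of the copies did not overlap in 22 pairs, in 14 with copy A below and in 8 with copy B below. Among the 19 pairs with 3 values for both copies, 12 did not overlap (63.2%). Of all possible pairs of strains with 3 values 48.4% did not overlap, so that a lack of overlap by itself says little about the copies. Copies differed by more than 2 without overlap in 4 pairs. RPS9A scored -0.12, -0.16 and -0.34 against -2.46 ± 0.80 for RPS9B, and RPS27A 0.10, 0.12 and 0.07 against -2.94 and -1.39 for RPS27B. RPL13A had a mean of -0.82 ± 0.36 (n = 3) and RPL13B of -3.04 ± 0.97 (n = 2), both called lower. In these 3 pairs copy B was the lower. RPL7A scored -5.09 and -2.01, which limma did not call (adjusted p = 0.0547), and RPL7B 2.92 and 1.49.

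**Figure D3:**
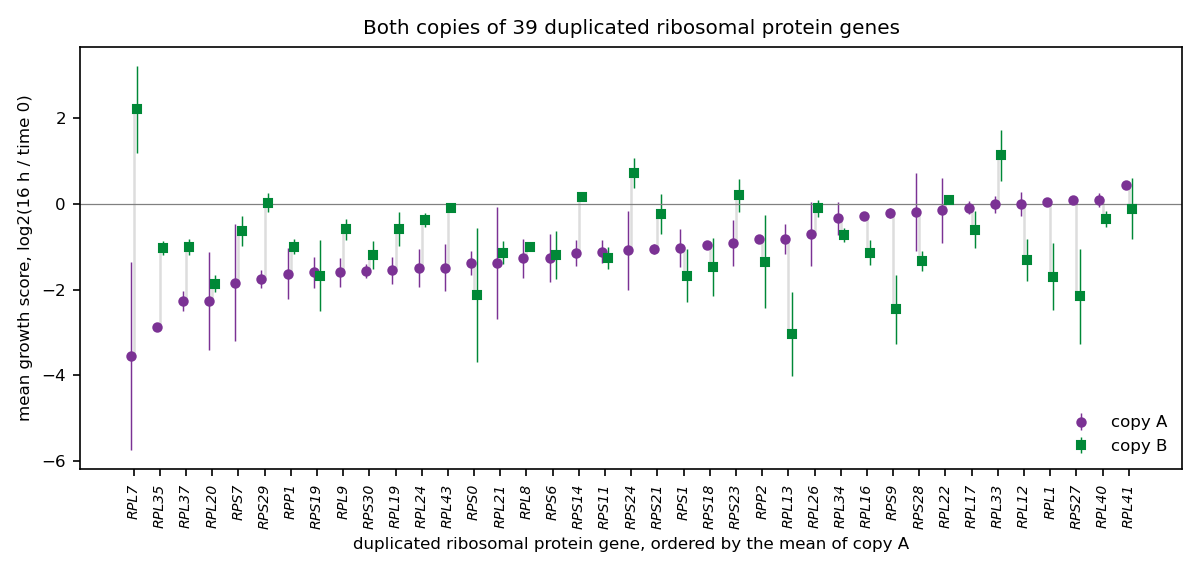
Mean growth score in log2 units (vertical axis) of copy A (circles) and copy B (squares) of 39 duplicated ribosomal protein genes, with the SD over 2 or 3 arrays as bars. The copies of RPL7, RPL13, RPS9 and RPS27 lie more than 2 apart, and the median distance between copies is 0.85.

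Among factors that assemble and export ribosomes, a list that holds essential and non-essential genes, 13 of 45 were lower and 3 higher, with a median of -0.22. The lowest were LOC1, whose product binds RNA and is needed for 60S subunits, at -3.90 and -5.02 on the 2 arrays that measured it, and BUD23, a methyltransferase of 18S ribosomal RNA, at -4.76 and -4.10. YVH1, which helps the 60S stalk to form, scored -3.76, -2.06 and -4.44, and LTV1, for 40S export, had a mean of -2.25. All 4 were called lower, while BUD22, of 40S assembly, scored 3.69 and 2.70 from its only probe. Smaller groups such as the following, in this and later paragraphs, were chosen after their values were seen and are description only. Translation initiation factor eIF3 was divided: TIF34 (-3.12), HCR1 (-2.53) and TIF35 (-2.27) were lower, and RPG1 (0.14), NIP1 (0.17) and PRT1 (0.75) were not called. All 4 measured subunits of Elongator, which modifies the wobble base of transfer RNAs, were lower, between -1.62 and -1.31.

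Mitochondrial mutants formed the other large group of lower strains. Of 220 strains on the mitochondrial lists, 98 were lower (44.5%) and 4 higher, with a median of -0.60. By function, 19 of 32 genes for mitochondrial shape and inheritance were lower and 0 higher (median -1.17, or -0.64 over strains with 3 values), 33 of 57 for mitochondrial gene expression were lower and 0 higher (median -0.79, or -0.50 without replicate 2), and 26 of 64 for the mitochondrial ribosome were lower and 3 higher (median -0.49). Of the respiratory chain and ATP synthase, 17 of 58 were lower and 1 higher (median -0.42). Without replicate 1 these 4 lists had 1, 1, 7 and 0 lower calls, and without replicate 2, 9, 14, 18 and 8.

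Smaller groups within these lists differed in depth. The 4 measured strains of the contacts that tie mitochondria to the endoplasmic reticulum were all lower: MDM12 scored -3.69, -2.84 and -4.92, MDM34 -3.77, -2.61 and -4.11, MDM10 -2.60, -1.77 and -3.63, and GEM1 -4.02 and -2.59. In the 3 strains with 3 values array 2 was the least extreme and array 3 the most. Of 12 mitochondrial transfer RNA synthetases 10 were lower, led by MSR1 for arginine at -3.70 and SLM5 for asparagine at -2.73. Of 6 factors for mitochondrial DNA and its transcription 5 were lower, among them the transcription factor MTF1 (-2.68) and the RNA polymerase RPO41 (-1.18), and the DNA-packaging protein ABF2 was at 0.15.

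Within the mitochondrial ribosome the scores of called strains ran from -3.34 to 1.06 for proteins of the same particle. RSM19 of the small subunit scored -3.08, -3.48 and -3.47, MRP7 of the large subunit -2.86, -3.41 and -3.04, and MRPL11 -3.02, -2.79 and -3.25. Other large-subunit strains such as MRPL8 (0.01), MRPL39 (0.09) and MRPL1 (0.13) were not called, and MRPL44 (0.60), FYV4 (0.88) and RSM25 (1.06) were higher. Of 36 large-subunit strains 17 were lower, 1 was higher and 18 were not called.

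The respiratory complexes differed too. For ATP synthase and its assembly, 9 of 16 strains were lower and the median was -1.10, with ATP14 at -2.33, the assembly factors ATP11 at -1.82 and ATP10 at -1.75, and the catalytic subunit ATP1 at -1.61. The cytochrome bc1 complex had 3 of 11 lower (median -0.52), and cytochrome c oxidase 4 of 22 lower and 1 higher (median -0.14), COX9 being higher with 0.82, 0.94 and 0.95. No strain of succinate dehydrogenase was called (0 of 4, from -0.01 to 0.57). Without replicate 1, 0 calls were left in each of these groups.

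Several iron-sulfur cluster and glutathione mutants were as low as mitochondrial ones, but the wider lists lay near the pool. On the copper and iron list, with ISA1, IBA57 and GRX5, 9 of 35 were lower (25.7%, against 12.6% of all strains) and 3 higher (8.57%, against 9.83%). Its median was -0.06. On the redox list, with GSH1 and GSH2, 5 of 34 were lower (14.7%) and 6 higher (17.6%), and the median was 0.16. Of 9 mitochondrial iron-sulfur assembly strains 5 were lower: ISA1 (-3.42), IBA57 (-3.24) and ISA2 (-2.49), which act together on 4Fe-4S proteins, the glutaredoxin GRX5 (-3.21, n = 2) and the chaperone SSQ1 (-2.97, n = 2). The scaffold genes ISU1 (0.29) and ISU2 (-0.45), which duplicate each other, and the essential genes JAC1 (-0.44) and YFH1 (-0.06) were not called. AFT1, the activator of iron uptake genes, scored -3.12, -1.57 and -3.11. The enzymes of glutathione synthesis were both lower, GSH2 with -4.40, -2.56 and -4.68 and GSH1 with -4.72 and -2.74, and array 2 was again the least extreme. Within the redox list the thioredoxin gene TRX1 (2.84 and 2.70), mitochondrial thioredoxin reductase TRR2 (2.85, 1.49 and 2.34) and mitochondrial superoxide dismutase SOD2 (1.98, 1.95 and 1.55) were higher, TRR2 and SOD2 from 1 probe each.

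Smaller groups of phospholipid mutants divided by route. Phosphatidylcholine is made either by methylation of phosphatidylethanolamine or from choline through CDP-choline. On the methylation route CHO2 (-3.30), OPI3 (-2.70, the later methylation steps) and PSD1 (-2.82, n = 2, mitochondrial phosphatidylserine decarboxylase) were lower, and the minor decarboxylase PSD2 was at -0.44. On the CDP routes 0 of 5 were lower and 3 were higher: choline kinase CKI1 scored 0.99, 1.62 and 0.62, cholinephosphotransferase CPT1 0.91, 1.47 and 0.92, and MUQ1, of the ethanolamine branch, 0.40, 1.00 and 0.63. The remaining 2 strains of the CDP routes were not called, and the lowest was at -0.36. Since these strains are named by their calls in opposite directions, a lack of overlap between the routes was not assessed. Of the 3 higher calls, 2 were made with centred arrays and 0 without replicate 1.

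The inositol genes divided likewise. INO4, the DNA-binding partner of INO2, scored -2.62 and -3.93, and the inositol transporter ITR1 -1.20, -1.48 and -1.39, both lower. INO1, which encodes the enzyme that makes inositol phosphate and is activated by INO2 and INO4, was higher, with 1.01, 0.95 and 0.92 from 1 probe. The repressor OPI1 scored -0.50, -1.27 and -0.24 and was not called. The list of phospholipid and fatty acid metabolism as a whole lay near the pool, with a median of 0.06. Of its 56 strains, 9 were lower (16.1%, against 12.6% of all strains) and 6 higher (10.7%, against 9.83%).

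Of 28 strains of purine and pyrimidine synthesis, 5 were lower (17.9%, against 12.6% of all strains) and 5 higher (17.9%, against 9.83%). The median was 0.07. The smaller groups of purine salvage and de novo synthesis had medians on opposite sides, -1.71 and 0.45. PRS3, on the list but in neither group, was lower with -2.71, -2.13 and -2.78. Of the enzymes for salvage and interconversion, AMD1 (-4.38), adenosine kinase ADO1 (-2.48), adenine deaminase AAH1 (-1.71) and adenine phosphoribosyltransferase APT1 (-1.09) were lower, and HPT1, for hypoxanthine and guanine, was at 0.29. AAH1 scored -1.67, -1.43 and -2.02, ADO1 -2.41, -1.90 and -3.12, and no array of these strains reached 0. Of 8 strains of purine synthesis de novo 0 were lower and 4 higher, ADE8 with 0.59, 1.24 and 1.69, ADE4, the entry enzyme, with 1.12, 1.52 and 0.57, ADE2 with a mean of 0.61 and ADE6 with 0.58. The other 4 lay between -0.25 and 0.31, and with centred arrays 2 of the 4 higher calls were made. Without replicate 1, and also without replicate 2, 0 of these higher calls were made. The lower calls of the salvage group numbered 0 without replicate 1 and 4 without replicate 2. ADO1, AAH1 and APT1 rest on 1 probe each.

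Most amino acid auxotrophs kept pace, and a few steps did not. For histidine, whose synthesis is already blocked in the parent, HIS7 was lower with -1.50, -1.30 and -1.46, while HIS1, HIS2, HIS4, HIS5 and HIS6 lay between -0.07 and 0.43. For lysine, LYS20, a homocitrate synthase, scored -2.12, -1.15 and -1.50, and its isoenzyme LYS21 had a mean of 0.35. Lower, too, were ILV1 (threonine deaminase, -2.62), HOM6 (homoserine dehydrogenase, -2.52), GLY1 (threonine aldolase, -2.15), PRO1 (the entry to proline, -1.99), CYS3 (-1.69) and CYS4 (-1.62), the last a pair that converts homocysteine to cysteine. The leucine gene LEU9 was higher with 1.95, 1.06 and 2.58, and so were SER1 (1.05), MET2 (1.07), MET8 (0.99) and STR2 (0.91), which acts from cysteine towards methionine. In tryptophan synthesis 0 of 5 strains were lower and 3 were higher, TRP2 with a mean of 0.76, TRP3 of 1.05 and TRP4 of 1.19, and TRP1 (0.43) and TRP5 (0.36) were not called. Without replicate 1, 0 of these 3 calls was left.

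On the list of glycolysis and glucose sensing, 8 of 45 strains were lower (17.8%, against 12.6% of all strains) and 5 higher (11.1%, against 9.83%). The median was 0.16. Some members of glucose signalling were called in opposite directions. SNF1, the kinase that turns on genes for the use of other carbon sources, scored 1.65, 1.93 and 0.91, and its activating subunit SNF4 0.76, 1.02 and 1.38, both higher. ADR1, a transcription factor that Snf1 activates, had the highest mean of the strains with 3 values and 2 or more probes, with 3.00, 2.49 and 1.36. All 9 values were above 0.7. REG1, the phosphatase subunit that holds Snf1 inactive, scored -2.28 and -1.77, and GRR1, the F-box protein of glucose induction, -5.75, -3.99 and -5.14 from 1 probe, both lower. SNF3, also of glucose sensing, was higher, with 1.32 and 1.30 on the 2 arrays that measured it. Of the beta subunits that direct Snf1, GAL83 (0.14), SIP1 (0.30) and SIP2 (0.01) were not called. Without replicate 1 the list had 1 lower and 0 higher calls, and without replicate 2, 5 lower and 1 higher.

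In carbon metabolism downstream, 0 of 12 citrate cycle strains were lower and 5 were higher, including IDH2 (2.43, n = 2, 1 probe), KGD1 (0.89) and FUM1 (0.69). When the arrays were centred, the citrate cycle and retrograde list kept 1 of its 6 higher calls. Pyruvate dehydrogenase, which feeds the cycle, had 2 of 5 strains lower, PDA1 (-2.19, n = 2) and PDB1 (-1.24). Of the genes that restrain protein kinase A, 0 of 5 were lower, the phosphodiesterases PDE2 (1.41 and 3.24) and PDE1 (0.73, 0.52 and 1.30) and the regulator GPB1 (0.76, 0.70 and 1.82) were higher, and IRA2 (0.89) and IRA1 (0.15) were not called. None of these 3 higher calls was made when the arrays were centred (0 of 5) or without replicate 1 (0 of 5).

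Several complexes of transcription and chromatin had many lower strains. In Mediator, which joins activators to RNA polymerase II, 8 of 20 were lower (40%, against 12.6% of all strains) and 1 higher. The median was -0.54, or -0.30 with all 8 arrays and the replicate number as a block. The tail subunit GAL11 was lowest, with -1.96, -1.95 and -2.66. In SAGA, a histone acetyltransferase complex, 4 of 11 were lower (36.4%): ADA2 (-2.42), NGG1 (-1.95), SPT3 (-1.08) and GCN5 (-1.07). The SAGA median was -0.41, but it was 0.12 on array 3 alone. Histone modifiers and corepressors moved both ways, with 24 of 64 lower (37.5%) and 9 higher (14.1%, against 9.83% of all strains), and a median of -0.22. Without replicate 1 the Mediator, SAGA and histone lists had 0, 0 and 1 lower calls, and without replicate 2, 5, 1 and 12. In the Rpd3 large complex 6 of 10 were lower, including SAP30 (-1.56), SIN3 (-1.48) and SDS3 (-1.40). Of the Sas2 complex, which acetylates histone H4, SAS4 (1.08) and SAS2 (0.81) were higher. In the Paf1 complex CDC73 (-3.45, n = 2) and LEO1 (-0.90) were lower and PAF1 (1.27) was higher. The Mad and Bub checkpoint genes, too, did not move as a group, since BUB3 (-2.65), BUB1 (-2.54) and SGO1 (-1.27) were lower and MAD1 (0.07), MAD2 (-0.13) and MAD3 (0.23) were not called.

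In protein turnover and traffic, the 20S core of the proteasome had 8 of 12 strains lower and 1 higher (median -1.07). Its catalytic subunit PRE2 scored -2.29, -1.47 and -2.23. The 19S regulatory particle had 2 of 16 lower, RPN11 and SEM1, a share close to the 12.6% of all strains (median -0.24). Most of these genes are essential, so that their strains carry reduced and not absent products. Of 19 strains on the list of ESCRT and endosomal sorting, which carries membrane proteins into endosomes, 6 were lower (31.6%, against 12.6%) and 3 higher (15.8%, against 9.83%). The lower ones, between -1.51 for SNF7 and -1.07 for STP22, were among 10 core subunits of ESCRT-I, II and III, and the higher ones were the associated factors VPS60 (0.66), IST1 (0.81) and RFU1 (3.61, n = 2). The Golgi GTPase YPT6 (-2.64) and the RGP1 (-3.25) and RIC1 (-3.24) subunits of its exchange factor were all lower, each with its least extreme value on array 2 (-1.56, -1.77 and -2.23). The whole Golgi traffic list had 4 of 55 strains lower (7.27%, against 12.6% of all strains), the last being GOS1 at -0.47. On the same list 6 were higher (10.9%, against 9.83% of all strains), among them COG7 (1.38), GCS1 (1.04) and APS1 (0.92).

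The lists made up of essential genes alone lay near the whole pool, while the proteasome core described above, also mostly essential, did not. On these 9 lists, 38 of 376 strains were lower (10.1%, against 12.6% of all) and 32 higher (8.51%, against 9.83%), their median was 0.08 and 24 had a mean below -1. The exceptions were spread over functions: the splicing factor PRP38 scored -3.34, -2.70 and -3.87, the kinetochore protein DAD1 had a mean of -2.71, the polymerase subunit RPB7 of -2.20 and the chaperonin subunit CCT4 of -2.01 (n = 2). For the chaperonin itself, 4 of 8 subunits were measured and 3 were lower.

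On other lists the share of lower strains was below the 12.6% of all strains, as a description without a test. Of 26 autophagy strains 2 were lower (7.69%) and 0 higher (median 0.14), of 39 in the pheromone response 1 was lower (2.56%) and 5 higher (12.8%, against 9.83% of all; median 0.21), and of 56 in meiosis and sporulation 1 was lower (1.79%) and 8 higher (14.3%; median 0.22). The lower strain of the pheromone list was FUS3, a MAP kinase, at -1.20, and among the higher ones were DIG1 (1.60, n = 2) and DIG2 (0.84), which repress the mating and filamentation genes. The vacuolar proton ATPase could hardly be read: 21 of its 23 list genes were on the array but 5 had growth values, none of them called. Strains on no list, 2471 in number, were lower in 6.60% and higher in 10.6% of cases.

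**Figure D4:**
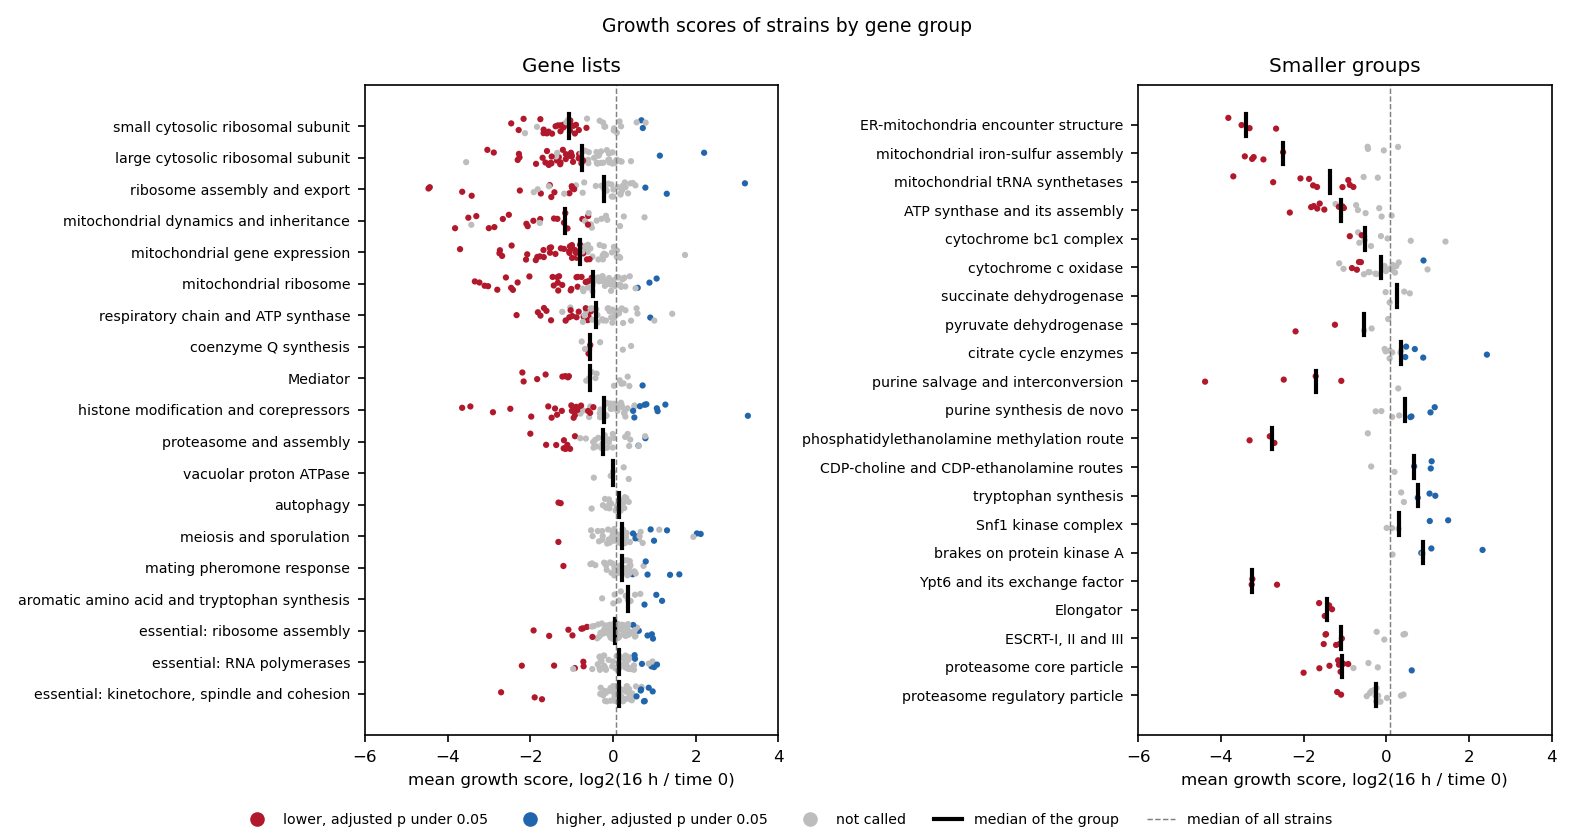
Mean growth score in log2 units (horizontal axis) of each strain (points, coloured by the limma call) on 19 gene lists and in 21 smaller groups chosen after the values were seen, with the group median as a black bar and the median of all strains, 0.08, as a dashed line. Ribosomal and mitochondrial lists lie to the left, and lists of essential genes are centred near the median of all strains. The salvage and de novo purine routes have medians on opposite sides, as do the methylation and CDP routes.

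Strains with a mean above 1 were fewer than those below -1, lay closer to 0, and rested on less even probes. Of the 15 highest with 3 values and at least 2 probes, ADR1 led with a mean of 2.28 ± 0.84 (limma adjusted p = 0.0142), followed by the mitochondrial heat shock protein ECM10 with 2.64, 2.42 and 1.26, and by ECM11, of meiotic recombination, with 1.86, 1.29 and 2.47. The most even was RMD6, of sporulation, with 1.50, 1.57 and 1.49 (mean 1.52 ± 0.05, limma adjusted p = 0.00535). The other 11 were LEU9, REV7 (DNA polymerase zeta), ICY2, YDR476C, ZRT3 (vacuolar zinc export), SNF1, YHR022C, PIN2, PKH3, TTI1 (an essential partner of large kinases) and PDR17 (lipid transfer), with means from 1.46 to 1.86. Strains with 2 values reached higher: RFU1, a ubiquitin regulator, with 4.55 and 2.67 from 1 probe, the cyclophilin CPR1 with 3.05 and 3.47, and PIB2, of TORC1 signalling, with 2.33 and 3.54. All 3 lacked a value on array 3.

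Different probes of a strain that fell behind agreed better than those of a strain that gained. Of 323 strains with a mean below -1 and at least 2 probes, every probe was below -1 in 255 (78.9%), and the median SD between probes was 0.29, as for all such strains. Of 132 strains with a mean above 1, every probe was above 1 in 43 (32.6%), and the median SD between probes was 0.82. For ADR1 the 4 probes ran from 1.58 to 5.07, and for PIN2 the 2 probes were at 0.55 and 2.41. Strains below -1 with such a split include DAL81, a regulator of nitrogen genes, with -3.85 and -0.87.

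**Figure D5:**
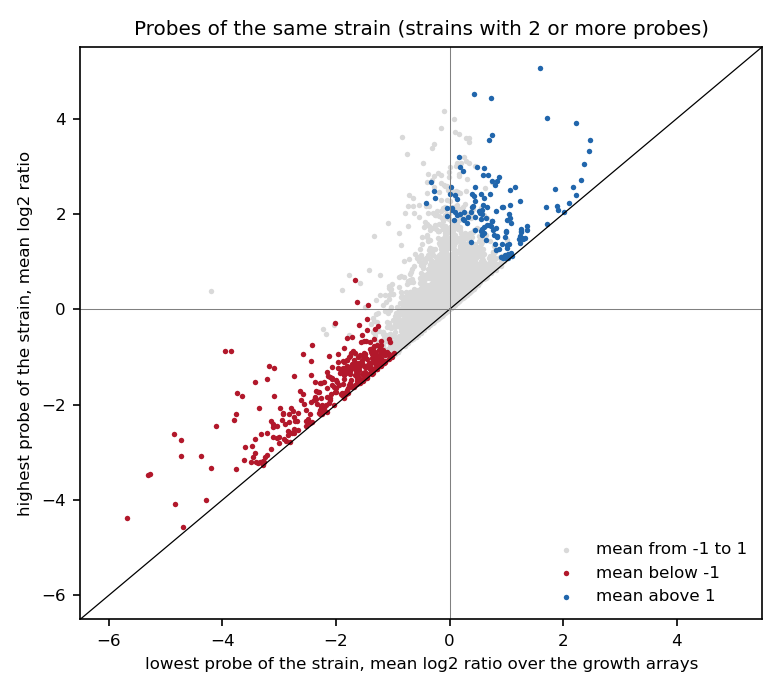
Highest probe (vertical axis) against lowest probe (horizontal axis) of each strain with 2 or more probes, as mean log2 ratios over the growth arrays, with the line of equality. Strains below -1 lie close to the line and strains above 1 mostly have a probe nearer to 0, as every probe was past the limit in 78.9% and 32.6% of them.

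Among strains known only by a systematic name, losses were rare: 9 of 435 were lower (2.07%, against 12.6% of all strains). Another 45 were higher, a share close to the 9.83% of all strains. Of the 9, 6 had a mean below -1. YPL062W scored -1.62, -1.71 and -1.36, and its neighbour ALD6, cytosolic aldehyde dehydrogenase, -1.63, -2.29 and -3.57. YGL046W, which the current annotation merges with RIM8, scored -1.33, -1.40 and -1.11, and RIM8 itself, of the Rim101 pathway, -1.33, -1.45 and -1.19, so that the 2 entries for this gene gave means of -1.28 and -1.32. For YDR114C (-2.63), YLR358C (-1.95), YNL184C (-1.63) and YDR042C (-1.17) no measured neighbour by name was lower.

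The SeMet arrays compare treated with untreated cultures at 16 h and may share the untreated culture with the growth arrays, so that values are set side by side without a test. Strains that had fallen behind were measured less often there: of the 426 strains below -1, 358 (84.0%) had at least 2 values at 20 uM SeMet, against 99.3% of the strains between -1 and 1 and 90.9% of those above 1. INO2 had 1 value at 20 uM, and URE2, BUD23 and GRX5 had none. GSH2, at -3.88 in plain medium, had a mean of -2.57 (n = 3) at 20 uM against the untreated culture, and the ESCRT strain SNF7, at -1.51 in plain medium, -2.67. CHO2, at -3.30, was at -0.18, and ERG26, at -3.63, at 1.96. GSH2, CHO2 and ERG26 are single examples, and growth and SeMet scores were not compared over all strains. The 3 lowest called strains of each cytosolic ribosomal subunit were all above 0 at 20 uM. Their values ran from 0.54 for RPS27B (n = 1) to 3.13 for RPL13B (n = 3).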

How the data were processed

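Barcodes were amplified from the pooled cultures and hybridised to 2-colour Agilent arrays scanned on a GenePix instrument. The authors deposited 1 log2 ratio for every probe, normalised with R scripts whose method is not given in the sources used here; for the growth arrays they are untreated over time 0. Probe intensities were not used, so depth per probe is unknown. Of 15744 probes, 13084 carry a gene symbol in the platform annotation. Strain means were tested against 0 with limma 3.58.1 (R 4.3.3; lmFit, eBayes, Benjamini-Hochberg over 4628 strains, adjusted p under 0.05). On simulated data 63 of 100 strains shifted by 1 and 87 of 100 shifted by 2 were called, and 7 of 157 calls were false. There the unshifted strains were centred on 0, the noise was normal and the SDs were shuffled among strains. These rates therefore need not hold for the calls made on the real arrays. Members and the 60 gene lists were chosen with earlier results of these data known. Strains named are the 15 lowest and 15 highest called strains with 3 values and at least 2 probes, up to 3 called strains per list and direction, ribosomal pairs over 2 apart, and members a sentence turns on. Alternatives were other normalisations, all 8 arrays in the fit, a replicate block, the median of probes, stricter filters and each array left out.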

Additional observations from a re-analysis of the deposited data

Results flagged for a closer look

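Probes without a gene symbol entered no comparison above. Of 1402 such probes with 3 growth values, 35 were below -1 on all 3 arrays (2.50%) and 23 were above 1 on all 3 (1.64%). Among 8554 named probes with 3 values the shares were 3.59% and 1.30%. Which strains these probes report is not known here.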

How the results depend on the processing

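Leaving out an array had the largest effect on the calls: 31 to 981 strains in all, 31 to 546 lower and 0 to 435 higher, against 1039, 584 and 455 with all 3. All 31 strains called without replicate 1 were also called with all arrays, as were 411 of 432 without replicate 2 and 815 of 981 without replicate 3. With at least 2 probes all past the limit, an alternative chosen after seeing the data, 255 strains were below -1 and 43 above 1. The other alternatives gave 830 to 1259 calls. Centring moved the split to 638 lower and 304 higher, and all 8 arrays in the fit to 591 lower and 668 higher.

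Whether the replicate numbers pair growth with SeMet arrays is not settled. Deviations of same-numbered arrays correlated with r = 0.200, -0.0895 and -0.155 at 20 uM. Growth array 1 correlated most positively with SeMet array 1, but growth array 2 with SeMet array 3 (r = 0.212) and growth array 3 with SeMet array 2 (r = 0.207). The untreated culture is the numerator of the growth ratio and the denominator of the SeMet ratio, so that a shared one would lower r. The sign of r therefore cannot decide the pairing, and no fit used these correlations. With the replicate number as a block in a fit of all 8 arrays, 1121 strains were called, 543 lower and 578 higher, and 404 were below -1 and 182 above 1; 882 of the calls were shared with the main comparison. No sign of a called strain named here turned under any of these alternatives.

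The number of arrays limits the precision.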

Other observations

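WHI5, which delays entry into the cell cycle, was named for 32 probes of the array. Its score was -0.49, -0.41 and -0.86 on the 3 arrays (mean -0.59), while the means of its probes ran from -1.13 to 0.16 with an SD of 0.38. YDR476C, at 2.63, 1.08 and 1.49, and SNF1 (YDR477W), at 1.65, 1.93 and 0.91, were both among the 15 highest strains, and their systematic names are next to each other on chromosome IV.

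Of 55 strains of recombination and the damage checkpoint, 13 were lower (23.6%, against 12.6% of all strains) and 5 higher (9.09%, against 9.83%). RAD52 (-1.99) and RAD50 (-1.44), which act in the repair of broken DNA, were lower, and RAD18 (1.23), of postreplication repair, and RAD9 (1.29, n = 2), of the damage checkpoint, were higher. Among amino acid permeases and their regulators, MUP1, for methionine (-2.18, n = 2), and TAT1, for tyrosine (-1.61), were lower, and TAT2, for tryptophan (0.70), GNP1, for glutamine (0.75), and SHR3, which packages permeases (1.00), were higher.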
